A study of Homo sapiens with 11 samples.

Results

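The genes described here are 10 tubulins: the beta tubulins TUBB, TUBB2A, TUBB2B, TUBB3 and TUBB6, the alpha tubulins TUBA1A, TUBA1B, TUBA1C and TUBA4A, and the gamma tubulin TUBG1. They are 10 of the 31325 rows of a gene expression table, which holds 1 row for each gene symbol, and all 10 had a row. They were taken by symbol as a family, chosen because TUBB was lower with miR-365a-3p in both cell lines of the study. The treatment differences of the 10 genes are therefore given as a description with no p-value, and where the number of them that passed the threshold is stated, that is description too. Tests of the 10 genes are given for the comparison of the lines' changes and of their control arrays.

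Expression was measured with HumanHT-12 v4 BeadChips, arrays of bead-bound probes, in 2 human cancer cell lines carrying an added microRNA or a control microRNA. MDA-MB-231 is a breast cancer line with mesenchymal features, and SKOV3 is an ovarian cancer line with high ERBB2, for which the study's methods name the derivative SKOV3.ip1. The 4 groups were MDA-MB-231 with miR-365a-3p (3 arrays), MDA-MB-231 with control miRNA (3 arrays), SKOV3 with miR-365a-3p (3 arrays) and SKOV3 with control miRNA (2 arrays). The sample labels give 48 hours of treatment whereas the series text gives 24 hours, and neither states whether the arrays of a group came from separate cultures, so the spread between arrays may be technical. Values are log2 signals, quantile normalized so that the 11 arrays share a distribution, and the SD or standard error (SE) of each mean or difference is over the arrays.

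Microtubules are hollow polymers of alpha and beta tubulin heterodimers, which carry cargo in interphase and form the spindle in mitosis. Gamma tubulin sits in a ring complex at centrosomes and elsewhere and starts new microtubules. Alpha and beta tubulin are each made from several genes whose proteins (isotypes) are very similar, and cells watch their own supply: when free tubulin dimers are abundant, the emerging tubulin chain on the ribosome is recognised by TTC5, and the tubulin mRNA is then degraded through SCAPER and the CCR4-NOT complex. Newly made tubulin has to be folded by prefoldin, the chaperonin CCT and the tubulin cofactors before it can enter a dimer.

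The added microRNA is shown first, since it is the treatment in every comparison. A microRNA pairs with mRNAs mainly through bases 2 to 8 of its 5′ end, the seed, in capitals below. RefSeq places the mature sequence at chr16:14309340-14309361 (miR-365a-3p) and chr17:31575478-31575499 (miR-365b-3p), both on the plus strand of GRCh38.p14, and the 2 genes give the same 22 bases.
hsa-miR-365a-3p: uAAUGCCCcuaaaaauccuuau
hsa-miR-365b-3p: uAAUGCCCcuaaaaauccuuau
The complement of the seed, GGGCAUU, was not searched for in tubulin mRNAs, because transcript sequences were not used here.

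The arrays matched their cell line labels. ERBB2, the receptor amplified in SKOV3, was 3.26 higher (log2) in SKOV3 control than in MDA-MB-231 control arrays, PAX8, a Müllerian lineage factor, was 0.78 higher, and the mesenchymal filament gene VIM was high in both (13.70 in SKOV3 and 13.79 in MDA-MB-231). The epithelial keratin KRT8 was also higher in SKOV3 (10.20 against 9.20), KRT18 was not (7.90 against 8.01), ESR1 was low in MDA-MB-231 (7.28 against 8.83), and CDH1 was low in both (7.27 and 7.43). With miR-365a-3p, ERBB2 fell by 1.57 and PAX8 by 0.70 in SKOV3 (limma adjusted p = 0.0084 and 4.29e-06), the ERBB2 call being lost without either SKOV3 control array. KRT8 went the other way, rising by 0.86 in MDA-MB-231 (limma adjusted p = 0.0057), with a difference of 0.61 in SKOV3 (limma adjusted p = 0.0690). Of the markers of other cell types, PTPRC, CD3E, PECAM1 and CDH5 had group means between 7.25 and 7.47, close to the median of all rows on an array (7.35 to 7.41), whereas CD68 had group means of 9.27 to 10.01 in all 4 groups. As deposited, the spread of values moved with the treatment: the 75th percentile of an array lay between 7.56 and 7.80 with miR-365a-3p and between 7.86 and 8.04 with control miRNA, and its part in the results was not tested beyond the other scalings given below.

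TUBB, the main beta tubulin of dividing cells, had the lowest treatment difference of the 10 genes in both lines after quantile normalization. In MDA-MB-231 it read 10.55, 10.98 and 11.10 with miR-365a-3p against 12.18, 12.24 and 12.45 with control miRNA, a log2 difference of -1.41 (SE 0.17), or 2.66-fold lower. In SKOV3 it read 11.02, 11.44 and 11.54 against 12.34 and 12.39, a difference of -1.03 (SE 0.19), or 2.05-fold lower. Every miR-365a-3p array lay below every control array of its line, and the control arrays of both lines stood close together, within 12.18 to 12.45. Replicate 1 was the lowest array of both treatments in each line.

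TUBB2A moved the other way in both lines. This beta tubulin, prominent in neurons and also made in other tissues, read 9.39, 9.44 and 9.40 with miR-365a-3p against 9.02, 8.61 and 8.89 with control miRNA in MDA-MB-231, a difference of 0.57 (SE 0.14). In SKOV3 the readings were 9.71, 10.19 and 9.69 against 9.17 and 9.14, a difference of 0.71 (SE 0.16). The arrays of the treatments did not overlap in either line, so TUBB was lower and TUBB2A higher on the same arrays.

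The 250 bases before the annotated start of TUBB and of TUBB2A (RefSeq, GRCh38.p14) are shown, 5′ to 3′ on the gene's strand. Capitals mark the letters CCAAT and TATAAA on either strand. The TUBB window is chr6:30720102-30720351 on the plus strand, the first of 2 annotated starts, and the TUBB2A window is chr6:3157545-3157794 on the minus strand.
TUBB: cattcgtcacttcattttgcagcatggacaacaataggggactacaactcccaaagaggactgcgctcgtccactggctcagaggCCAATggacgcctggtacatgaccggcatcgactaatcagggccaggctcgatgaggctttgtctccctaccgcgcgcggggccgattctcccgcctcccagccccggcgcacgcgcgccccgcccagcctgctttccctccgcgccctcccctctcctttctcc
TUBB2A: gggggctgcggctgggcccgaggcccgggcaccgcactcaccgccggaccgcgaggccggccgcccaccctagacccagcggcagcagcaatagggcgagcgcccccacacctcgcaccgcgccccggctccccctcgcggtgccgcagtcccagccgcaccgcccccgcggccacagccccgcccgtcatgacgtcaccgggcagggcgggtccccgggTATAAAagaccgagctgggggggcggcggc
The TUBB window holds 1 CCAAT, 165 bases before the start, and no TATAAA, whereas the TUBB2A window holds 1 TATAAA and no CCAAT. Of 35116 promoter windows of the same length, 32% hold CCAAT and 10.7% hold TATAAA. The letters GGGCGG, found in 42.6% of windows, occur once in the TUBB window and 5 times in the TUBB2A window. These differences depend on the start: the window of the second TUBB start, chr6:30721388-30721637, holds GGGCGG 5 times, as TUBB2A does, and neither CCAAT nor TATAAA. Among the other members, CCAAT lies in the windows of TUBB2B and of the second TUBB3 start, both higher with miR-365a-3p in MDA-MB-231. It also lies in those of TUBA1A, TUBA1C, TUBG1 and the second TUBB6 start, lower there, but not in that of TUBA1B, also lower. TATAAA lies in no window of another member. These matches describe the windows and are not evidence that any factor binds there.

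The remaining beta tubulins differed by cell line. TUBB6, a widely made isotype, read 9.80, 9.95 and 9.96 with miR-365a-3p against 10.31, 10.64 and 10.63 with control miRNA in MDA-MB-231, a difference of -0.62 (SE 0.12) with no overlap. Its SKOV3 readings were 9.63, 9.41 and 9.71 against 9.42 and 9.15, a difference of 0.30 (SE 0.13), and the arrays overlapped. TUBB6 was thus lower with miR-365a-3p in MDA-MB-231 and slightly higher on average in SKOV3.

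TUBB2B, a close copy of TUBB2A best known from the developing brain, read 8.10, 8.03 and 7.95 with miR-365a-3p against 7.51, 7.53 and 7.51 with control miRNA in MDA-MB-231, a difference of 0.51 (SE 0.04). In SKOV3 all 5 arrays read between 7.51 and 7.55, with a difference of 0.00114 (SE 0.04). The control level of this row lay at the 66th percentile of all rows in MDA-MB-231 control arrays and the 67th in SKOV3 control arrays, near the low end of the scale where most rows lie.

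TUBB3, the neuronal beta tubulin that many tumours also make, read 9.40, 9.59 and 9.63 against 9.07, 9.35 and 9.23 in MDA-MB-231, a difference of 0.33 (SE 0.10). In SKOV3 it read 10.20, 10.53 and 10.34 against 10.17 and 10.09, a difference of 0.23 (SE 0.11). The arrays did not overlap in either line, but the gap between the nearest arrays was small, and the MDA-MB-231 difference was 0.08 on the values as deposited.

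Among the alpha tubulins, TUBA1C differed most in MDA-MB-231 under each of the 4 scalings tried, and in SKOV3 after quantile normalization and cyclic loess, but not as deposited or median centred, where TUBA4A differed more (0.24 and 0.28). It read 11.39, 12.14 and 12.04 with miR-365a-3p against 12.98, 13.23 and 13.32 with control miRNA in MDA-MB-231, a difference of -1.32 (SE 0.20), or 2.49-fold lower. SKOV3 arrays gave 12.92, 13.32 and 13.26 against 13.65 and 13.54, a difference of -0.42 (SE 0.22). All miR-365a-3p arrays were below the control arrays in each line. In SKOV3 this held after quantile normalization but not on the values as deposited, where the arrays overlapped and the difference was -0.14, and after median centring it was -0.10.

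TUBA1A, the alpha tubulin of young neurons, read 12.08, 12.57 and 12.51 against 13.10, 12.96 and 13.21 in MDA-MB-231, a difference of -0.70 (SE 0.12). TUBA1B, the common alpha tubulin of most cells, read 12.94, 13.46 and 13.37 against 13.65, 13.69 and 13.77, a difference of -0.45 (SE 0.12). In SKOV3 the differences were small, -0.10 (SE 0.13) for TUBA1A and -0.20 (SE 0.13) for TUBA1B, and both turned positive on the values as deposited (0.12 and 0.08) and after centring each array on its median (0.15 and 0.12). TUBA1B was the highest row of all 31325 on both SKOV3 control arrays, so that quantile normalization sets it to the top of the scale there, 13.95 on each. TUBA1A, TUBA1B and TUBA1C have nearly identical coding sequences, and since the probe sequences and the rule that joined probes into 1 row were not used here, how far each row measures its own gene is uncertain. The same holds for TUBB2A and TUBB2B.

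TUBA4A, an alpha tubulin of muscle, platelets and neurons, had the smallest treatment difference of the 10 genes in MDA-MB-231. It read 10.69, 11.19 and 11.14 with miR-365a-3p against 10.79, 11.01 and 11.07 with control miRNA in MDA-MB-231, a difference of 0.04 (SE 0.13) with overlapping arrays. The SKOV3 arrays gave 11.08, 11.26 and 11.15 against 11.07 and 10.90, a difference of 0.18 (SE 0.15).

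The gamma tubulin TUBG1 was lower in both lines. In MDA-MB-231 it read 8.53, 8.60 and 8.58 with miR-365a-3p against 9.16, 9.22 and 9.42 with control miRNA, a difference of -0.70 (SE 0.09), or 1.62-fold lower. In SKOV3 it read 9.06, 8.70 and 8.81 against 9.31 and 9.35, a difference of -0.47 (SE 0.10), or 1.39-fold lower. No array of the treatments overlapped in either line.

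**Figure D1:**
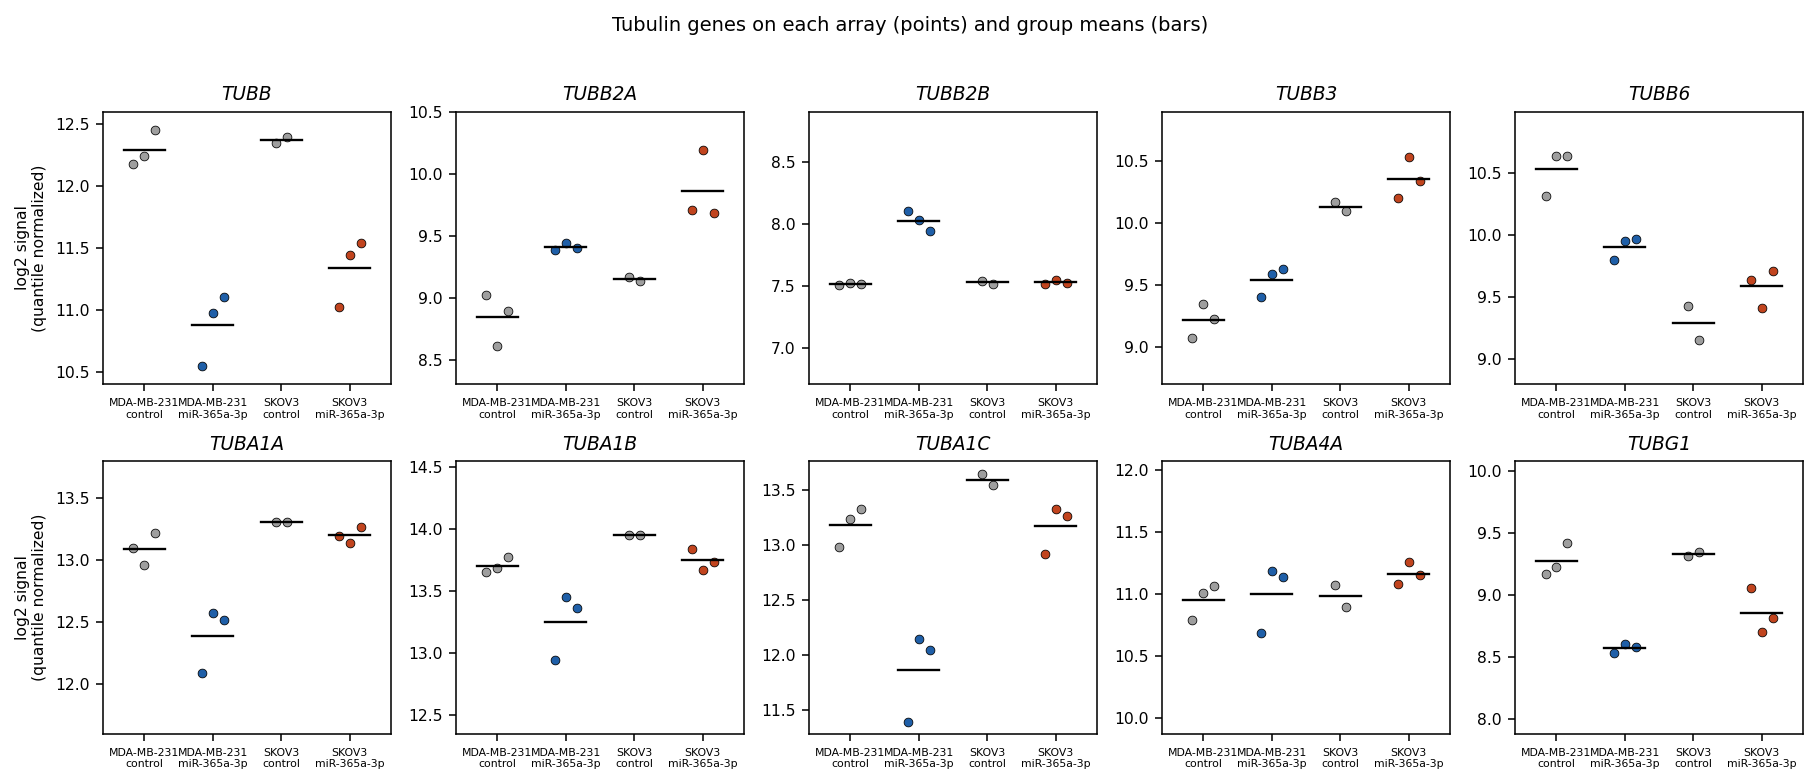
The log2 signal of each of the 10 tubulin genes is plotted on each array (points) with the group mean (bar), for control miRNA and miR-365a-3p in MDA-MB-231 and SKOV3, with 3 arrays a group and 2 for SKOV3 control. TUBB and TUBG1 lie lower with miR-365a-3p in both lines, TUBB2A lies higher in both, and TUBB2B differs in MDA-MB-231.

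Counted together after quantile normalization, the arrays of the treatments were apart for 9 of the 10 genes in MDA-MB-231 (6 lower and 3 higher with miR-365a-3p) and for 8 of 10 in SKOV3 (5 lower and 3 higher). Among all 31325 rows, the arrays were apart for 38% in MDA-MB-231 and 41.8% in SKOV3. At an adjusted p under 0.05 (limma, Benjamini-Hochberg adjustment over all rows), 9 of the 10 genes passed in MDA-MB-231, beside 26.1% of all rows, and 3 of 10 passed in SKOV3, beside 14.4% of all rows. The 3 were TUBB, TUBB2A and TUBG1, which also passed in MDA-MB-231 in the same direction, beside 5.39% of all rows called lower in both lines and 5.76% called higher in both. Of the 10 genes, 9 had a mean signal above 8, and of the 6853 rows above that level 65.2% passed in MDA-MB-231 and 38.7% in SKOV3. As the family was chosen on this contrast, nothing is read from these counts. Both SKOV3 control arrays mattered to the SKOV3 count: without replicate 1 only TUBB passed, and without replicate 2 none of the 10 genes passed in limma, with 3 under an unadjusted p of 0.05. The median difference over the 10 genes was -0.54 in MDA-MB-231 and -0.05 in SKOV3, where it turned to 0.10 on the values as deposited, beside a median of 0.01 over all rows in each line.

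**Figure D2:**
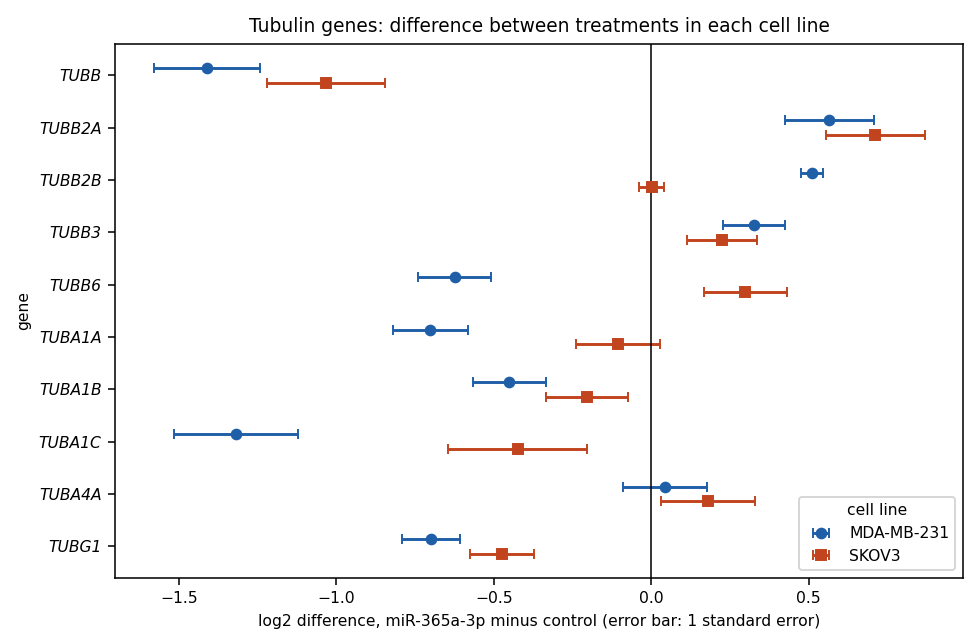
The log2 difference between miR-365a-3p and control miRNA (x axis) is plotted for each tubulin gene (y axis) in MDA-MB-231 (circles) and SKOV3 (squares), with bars of 1 SE. TUBB lies at -1.41 and -1.03 and TUBB2A at 0.57 and 0.71, while TUBB6 lies on opposite sides of 0 in the 2 lines.

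The scaling of the arrays changed the size of several of these differences. Over quantile normalization, the deposited values, median centring and cyclic loess, TUBB stayed between -1.52 and -1.30 in MDA-MB-231 and between -1.03 and -0.81 in SKOV3, and TUBB2A between 0.29 and 0.57 and between 0.59 and 0.71. TUBG1 was larger in size on the deposited values, at -1.02 in MDA-MB-231 and -0.63 in SKOV3. TUBB2B in MDA-MB-231 was smaller, at 0.24 as deposited and 0.27 median centred against 0.51 after quantile normalization. Besides TUBA1A and TUBA1B in SKOV3, the sign changed with the scaling for TUBB2B in SKOV3 (-0.15 as deposited, where it passed the threshold) and for TUBA4A in MDA-MB-231 (-0.03 with cyclic loess).

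**Figure D3:**
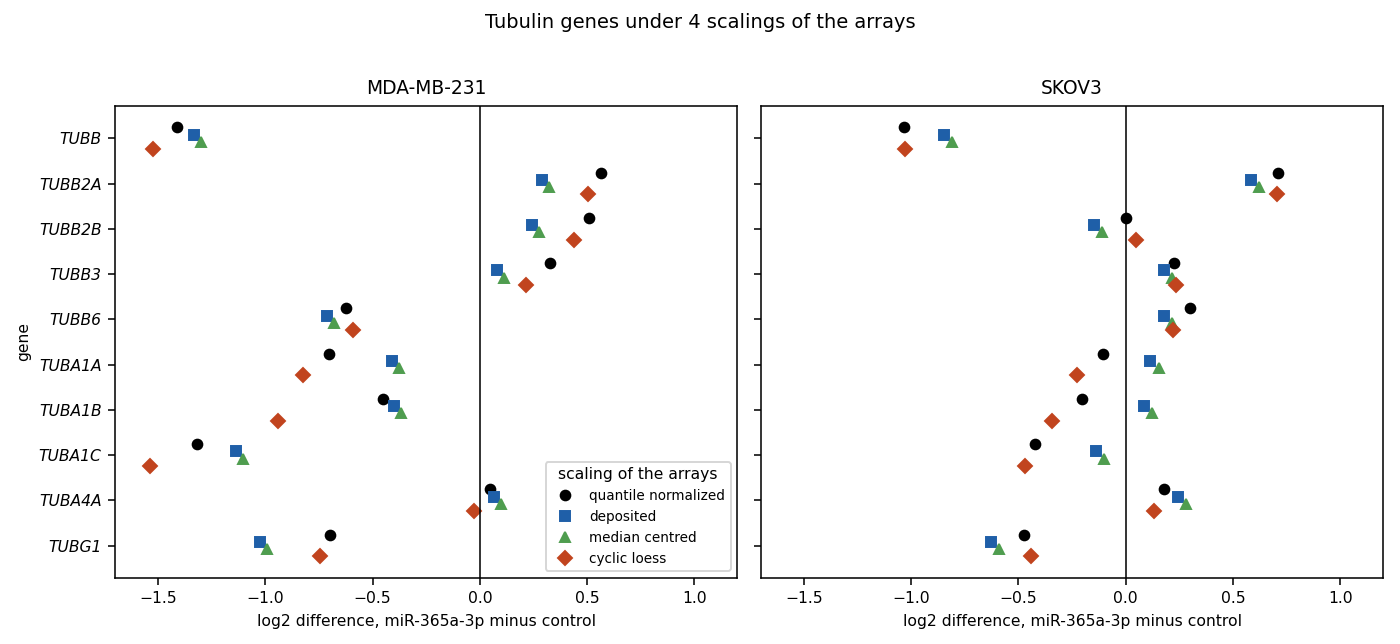
The log2 difference between miR-365a-3p and control miRNA (x axis) is plotted for each tubulin gene (y axis) in each cell line under 4 scalings of the arrays, each with its own marker. TUBB, TUBB2A and TUBG1 stay on 1 side of 0 in both panels, and TUBA1A and TUBA1B straddle 0 in SKOV3.

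Whether a tubulin gene responded differently in the 2 lines was tested as the change in SKOV3 minus the change in MDA-MB-231, for the 9 genes other than TUBB. This test passed for TUBB6 and TUBB2B, 2 of 9 genes, beside 2.54% of all rows and 4.01% of rows with a mean above 8. For TUBB6 the change was 0.92 higher in SKOV3 (SE 0.18, limma adjusted p = 0.0318). For TUBB2B it was 0.51 lower in SKOV3 (log2 -0.51, SE 0.05, limma adjusted p = 0.0021), and -0.39 on the deposited values. This test uses the same arrays as the treatment differences above and is not separate evidence of them. The TUBB6 call was lost when any of 8 single arrays was left out and on the deposited or median-centred values, although its size stayed between 0.79 and 1.06, whereas TUBB2B lost its call only with the replicate number as a block.

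The other 7 genes did not pass, which leaves sizeable differences possible. For TUBA1C the changes differed by 0.89 (95% interval 0.22 to 1.57, limma adjusted p = 0.213) and for TUBA1A by 0.60 (0.19 to 1.00, limma adjusted p = 0.163). For TUBG1 the interval ran from -0.09 to 0.54, for TUBA1B from -0.15 to 0.64, for TUBA4A from -0.32 to 0.59, for TUBB2A from -0.34 to 0.63 and for TUBB3 from -0.44 to 0.24. TUBB, which chose the family, differed by 0.38 (SE 0.25).

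The 2 lines also differed in their tubulins without the added microRNA. SKOV3 control arrays carried more TUBB3, at 10.17 and 10.09 against 9.07, 9.35 and 9.23 in MDA-MB-231 control arrays, a difference of 0.92 (SE 0.11, limma adjusted p = 0.0005) or 1.89-fold higher. They carried less TUBB6, at 9.42 and 9.15 against 10.31, 10.64 and 10.63, a difference of -1.24 (SE 0.13, limma adjusted p = 0.0002) or 2.37-fold lower. Both calls held under all 16 alternative settings in which the comparison was made. These 2 of 10 calls stand beside 16.1% of all rows and 39.3% of rows with a mean above 8. This comparison shares its control arrays with the treatment comparisons, and cell line and any batch of a line cannot be told apart.

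None of the other 8 genes passed between the control groups in limma, where 2 of the 10 genes, TUBB3 and TUBB6, were under an unadjusted p of 0.05. TUBB differed by 0.08 (95% interval -0.35 to 0.51) and TUBG1 by 0.06 (-0.17 to 0.29). TUBA1C differed by 0.42 (-0.09 to 0.92), TUBB2A by 0.31 (-0.05 to 0.67), TUBA1A by 0.21 (-0.09 to 0.52) and TUBA1B by 0.25 (-0.05 to 0.54), the last turning to -0.29 on the deposited values. Counting arrays alone, 6 of the 10 genes did not overlap between the control groups (5 above and 1 below in SKOV3), beside 44% of all rows.

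A further 13 rows carry tubulin symbols, among them the delta and epsilon tubulins of centrioles, the second gamma tubulin and testis-type alpha tubulins. These were tested, since they were not what the family was chosen on, but this list too was drawn up with earlier results of these data known. In MDA-MB-231, 4 of the 13 rose and 3 fell, and in SKOV3 2 fell. The background was 14.4% rising and 11.7% falling in MDA-MB-231 and 7.11% falling in SKOV3. Their median difference was 0.03 in MDA-MB-231 and -0.01 in SKOV3. Of the 6 with a mean above 8, 1 rose and 2 fell in MDA-MB-231, beside 39% and 26.2% of the rows above that level. In SKOV3 none of the 6 passed, beside 38.7%. The rises depended on the scaling, since none of the 13 rose on the deposited values and 1 did after median centring.

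TUBG2, the second gamma tubulin gene, fell in both lines as TUBG1 was lower in both. It read 7.58, 7.53 and 7.46 with miR-365a-3p against 7.74, 7.79 and 7.89 with control miRNA in MDA-MB-231 (log2 difference -0.28, limma adjusted p = 0.0011). In SKOV3 it read 7.55, 7.58 and 7.56 against 8.11 and 8.09 (-0.53, limma adjusted p = 0.0002). The call held under all 4 scalings in both lines. With miR-365a-3p this row lay at the 67th percentile of all rows in MDA-MB-231 and the 68th in SKOV3, near the low end of the scale. How far the TUBG1 and TUBG2 rows measure separate genes was not tested.

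Rows named for relatives of the TUBA1 and TUBB genes made up the other falls in MDA-MB-231. TUBA3D, a testis-type alpha tubulin, fell by 0.59 on the log2 scale (limma adjusted p = 0.0037), and in SKOV3 its difference was -0.39 (limma adjusted p = 0.0647). TUBB2C, now named TUBB4B and widely made, fell by 0.66 in MDA-MB-231 (limma adjusted p = 0.0326), a call lost without any of 7 single arrays, and in SKOV3 its difference was -0.32 (limma adjusted p = 0.456). TUBB4Q, a pseudogene now named TUBB7P, had differences of -0.42 and -0.24 that did not pass. Over the 11 arrays, the deviations of TUBB4Q from its group means correlated with those of TUBB2C at 0.92. The deviations of TUBA3D correlated with those of TUBA1C at 0.51. How far the TUBA3D and TUBB4Q rows measure their own genes is uncertain, in MDA-MB-231 and SKOV3 alike, and was not tested.

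TUBE1, the epsilon tubulin, rose by 0.40 in MDA-MB-231 (limma adjusted p = 0.0217) but by 0.04 on the deposited values, where it did not pass, and without any of 4 single arrays the call was lost. Its SKOV3 difference was 0.30 (limma adjusted p = 0.153). TUBD1, the delta tubulin, did not pass in either line, and its differences changed sign on the deposited values (0.20 to -0.15 in MDA-MB-231, 0.02 to -0.28 in SKOV3). TUBA3E differed by 0.42 and 0.47 without passing. Between the control groups, 5 of the 13 rows passed, all higher in SKOV3, beside 16.1% of all rows passing in either direction. They were TUBB4 (0.35), described below, and TUBA3D (0.77), TUBA3E (0.77), TUBD1 (0.53) and TUBG2 (0.29). The last 4 had limma adjusted p of 0.0023, 0.0381, 0.0050 and 0.0023. The TUBA3E call was kept in 4 of the 11 fits that left out an array, and that of TUBD1 was lost without SKOV3 control replicate 1.

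The remaining 6 rows lay low on the scale. TUBAL3, whose mean lay above the 60th percentile of row means, rose by 0.13 in MDA-MB-231 (limma adjusted p = 0.0378). That rise passed in 1 of the 4 scalings, and the SKOV3 difference was 0.12 (limma adjusted p = 0.128). TUBB1, named after its values were seen, rose by 0.06 in MDA-MB-231 (limma adjusted p = 0.0472) from a control mean of 7.28. One of the 6, the row named TUBB4, an older symbol shared by TUBB3 and TUBB4A, passed the test between lines and was named after its values were seen. It rose by 0.12 in MDA-MB-231 (limma adjusted p = 0.0308) and fell by 0.34 in SKOV3 (limma adjusted p = 0.0007), and the change was lower in SKOV3 by -0.45 (limma adjusted p = 0.0027). In MDA-MB-231 control arrays its mean was 7.33, at the 35th percentile of rows, near the low end of the scale. In SKOV3 its mean was 7.68 with control miRNA and 7.34 with miR-365a-3p. The rise in MDA-MB-231 passed in 2 of the 4 scalings and in 6 of the 11 fits that left out an array.

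**Figure D4:**
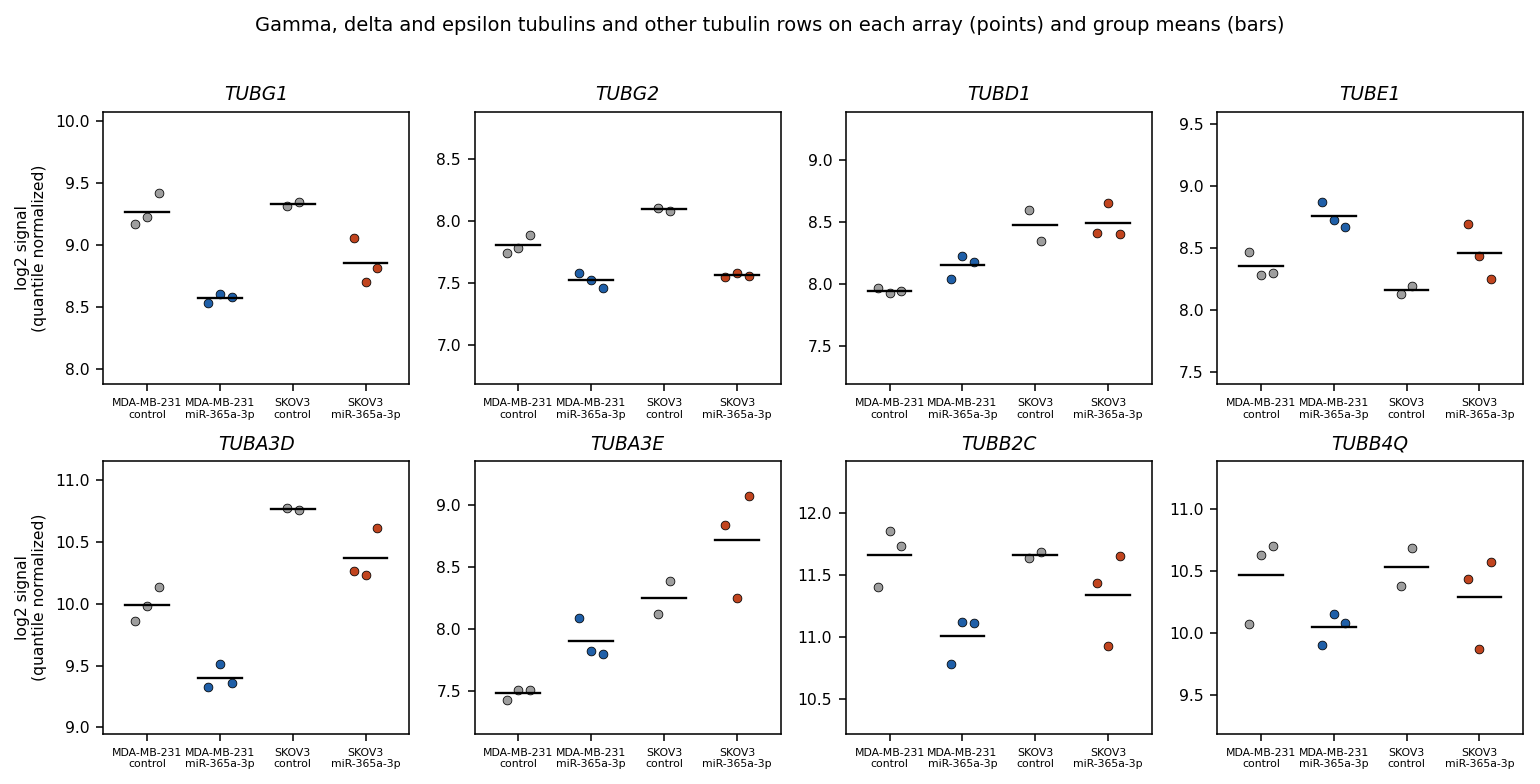
The log2 signal of TUBG1 and of 7 other tubulin rows that lay above the 60th percentile of row means is plotted on each array (points) with the group mean (bar). TUBAL3, which also lay above that percentile, is not plotted. TUBG1 and TUBG2 lie lower with miR-365a-3p in both lines, and TUBD1, TUBA3D and TUBA3E lie higher in SKOV3 than in MDA-MB-231 control arrays.

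The genes that fold, nucleate, modify or bind tubulin were tested next, as lists taken from textbook roles. The lists were drawn up with earlier results of these data known, so their counts and p-values are not independent evidence. Over all 31325 rows, the deposited values gave more falls and fewer rises than quantile normalization. In MDA-MB-231, 5620 rows fell and 2275 rose as deposited, against 3663 and 4511 after quantile normalization. In SKOV3 these counts were 4401 and 1201 against 2228 and 2270. The counts of each list on the deposited values, given below, stand beside these. Of the 22 folding genes, 14 rose and 1 fell in MDA-MB-231, and 6 rose and 1 fell in SKOV3, the same 6 and the same 1. The background was 14.4% rising in MDA-MB-231 and 7.25% in SKOV3. Rows of higher signal passed more often: of the 19 folding genes with a mean above 8, 13 rose in MDA-MB-231 and 6 in SKOV3, beside 39% and 23.4% of the rows above that level. The median difference was 0.45 in MDA-MB-231 and 0.37 in SKOV3, and it stayed above 0 under each of the 4 scalings (0.39 to 0.46 and 0.22 to 0.37). On the deposited values 9 rose in MDA-MB-231 and 6 in SKOV3.

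VBP1, a prefoldin subunit that hands unfolded tubulin and actin to the chaperonin, read 11.27, 11.27 and 10.95 with miR-365a-3p against 9.63, 10.09 and 9.66 with control miRNA in MDA-MB-231, a rise of 1.37 (limma adjusted p = 0.0009). It rose by 1.00 in SKOV3 (limma adjusted p = 0.0147). CCT2, a chaperonin subunit, read 12.57, 12.69 and 12.57 against 11.56, 11.62 and 11.82 in MDA-MB-231 and rose by 0.94 there and by 0.92 in SKOV3 (limma adjusted p = 0.0002 and 0.0008). The chaperonin subunits CCT6A (0.61 and 0.82) and CCT8 (0.60 and 0.63) also rose in both lines. Of the other subunits, named after their values were seen, CCT3 (0.47 and 0.61) and CCT7 (0.35 and 0.48) passed in both lines. CCT4 (0.59 and 0.34) passed in MDA-MB-231 only. CCT5 (0.06 and 0.35) and TCP1 (-0.35 and -0.08) passed in neither. So several subunits of the machine that folds tubulin rose on arrays where TUBB was lower. The 1 folding gene that fell in both lines was TBCD, a cofactor that handles beta tubulin (-0.50 and -0.47), named after its values were seen. Without SKOV3 control replicate 1 the SKOV3 calls of VBP1 and CCT8 were lost, and without replicate 2 that of VBP1.

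Of 16 genes of the gamma tubulin complex and its recruiters, 2 rose and 5 fell in MDA-MB-231 beside 14.4% and 11.7% of all rows, and 1 rose and 2 fell in SKOV3 beside 7.25% and 7.11%. PCNT, which anchors gamma tubulin at the centrosome, fell by 0.50 in MDA-MB-231 and by 0.75 in SKOV3 (limma adjusted p = 0.0045 and 0.0020). NEDD1, which targets the ring complex, rose by 0.27 and 0.30 (limma adjusted p = 0.0013 and 0.0025), but on the deposited values its difference was -0.06 in MDA-MB-231 and 0.05 in SKOV3. The list's median was -0.03 and -0.04. Of its 7 genes with a mean above 8, 1 rose and 3 fell in MDA-MB-231 and 1 fell in SKOV3. Beside them stand 39%, 26.2% and 15.3% of the rows above that level. On the deposited values 8 fell in MDA-MB-231 and 6 in SKOV3, and none rose in either line.

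Of the 11 genes that act in the decay of tubulin mRNA, 7 fell and 2 rose in MDA-MB-231 and 3 fell in SKOV3. The background was 11.7% falling and 14.4% rising in MDA-MB-231 and 7.11% falling in SKOV3. Of the 7 with a mean above 8, 4 fell and 2 rose in MDA-MB-231 and 1 fell in SKOV3. Beside them stand 26.2%, 39% and 15.3% of the rows above that level. The 3 that fell in SKOV3, CNOT1, CNOT3 and CNOT6, are all subunits of CCR4-NOT, which shortens the tails of many mRNAs and not those of tubulin alone. CNOT1, its scaffold, read 7.37, 7.43 and 7.46 against 8.79, 8.34 and 8.50 in MDA-MB-231 and fell by 1.12 there and by 0.76 in SKOV3 (limma adjusted p = 0.0001 and 0.0032). CNOT6, a deadenylase, fell by 1.19 and 0.75, and CNOT3 fell by 0.19 and 0.24. The 2 that rose in MDA-MB-231, named after their values were seen, were CNOT10 (0.45) and TTC5, the tubulin-specific recogniser (0.59, limma adjusted p = 0.0024), whose SKOV3 difference was 0.29 (limma adjusted p = 0.139). Neither passed on the deposited values, where 8 of the list fell in MDA-MB-231 and 4 in SKOV3.

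Of 25 genes for enzymes that modify tubulin tails or acetylate it, 3 rose and 6 fell in MDA-MB-231 beside 14.4% and 11.7% of all rows, and 1 rose and 2 fell in SKOV3 beside 7.25% and 7.11%. On the deposited values the falls were 11 and 9, with 1 rise in each line. CCDC23, now named SVBP, a partner of the vasohibins that remove the last tyrosine of alpha tubulin, rose by 1.04 and 0.69 (limma adjusted p = 0.0004 and 0.0096), while VASH1, a vasohibin, fell by 0.20 and 0.36 (limma adjusted p = 0.0379 and 0.0079). VASH1 lay near the low end of the scale, with means of 7.52 with control miRNA and 7.32 with miR-365a-3p in MDA-MB-231. Its call there held in 3 of the 4 scalings, and the difference was -0.10 with cyclic loess. CCDC23 and VASH1, partners of 1 enzyme, thus moved in opposite directions in both lines, VASH1 at a low signal. Both SKOV3 calls were lost without either SKOV3 control array, and the MDA-MB-231 call of VASH1 was kept in 3 of the 11 fits that left out an array. The median over the list was -0.02 and -0.003. Of its 5 genes with a mean above 8, 2 rose and 2 fell in MDA-MB-231 and 1 rose in SKOV3. Beside them stand 39%, 26.2% and 23.4% of the rows above that level.

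Of 33 genes for proteins that bind, cut or stabilise microtubules, 12 fell and 2 rose in MDA-MB-231 and 10 fell and 3 rose in SKOV3, with 8 falling in both, beside 11.7%, 7.11% and 5.39% of all rows falling. On the deposited values 18 fell and 1 rose in MDA-MB-231 and 17 fell and 1 rose in SKOV3. Beside them, 5620 and 4401 of all 31325 rows fell on those values. Of the 13 with a mean above 8, 6 fell in MDA-MB-231 and 4 in SKOV3, beside 26.2% and 15.3% of the rows above that level. CKAP5, a microtubule polymerase, read 7.87, 8.06 and 8.17 with miR-365a-3p against 10.29, 9.29 and 9.79 with control miRNA in MDA-MB-231, a fall of 1.76 (limma adjusted p = 0.0017), and fell by 1.13 in SKOV3 (limma adjusted p = 0.0425), a call kept in 3 of 11 fits that left out an array. TPX2, a spindle assembly factor, fell by 1.80 and 0.94 (limma adjusted p = 2.93e-05 and 0.0026). MAP1B, a neuronal stabiliser, fell by 1.31 and 0.79, and MAP7D1, which helps recruit kinesin, by 1.10 and 0.82. The falls of these 4 genes held under all 4 scalings in both lines, but the SKOV3 call of MAP7D1 was lost without either SKOV3 control array. Of the 33 genes, 3, named after their values were seen, passed the test between lines, beside 2.54% of all rows and 4.01% of rows with a mean above 8. They were STMN3, a tubulin-sequestering stathmin (change higher in SKOV3 by 1.18, limma adjusted p = 0.0208), MAP1S (0.72 higher, limma adjusted p = 0.0048) and MAPRE3 (-0.23, limma adjusted p = 0.0315). MAP1S fell in both lines (-1.31 in MDA-MB-231 and -0.59 in SKOV3). STMN3 rose by 1.10 in SKOV3 and differed by -0.08 in MDA-MB-231.

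**Figure D5:**
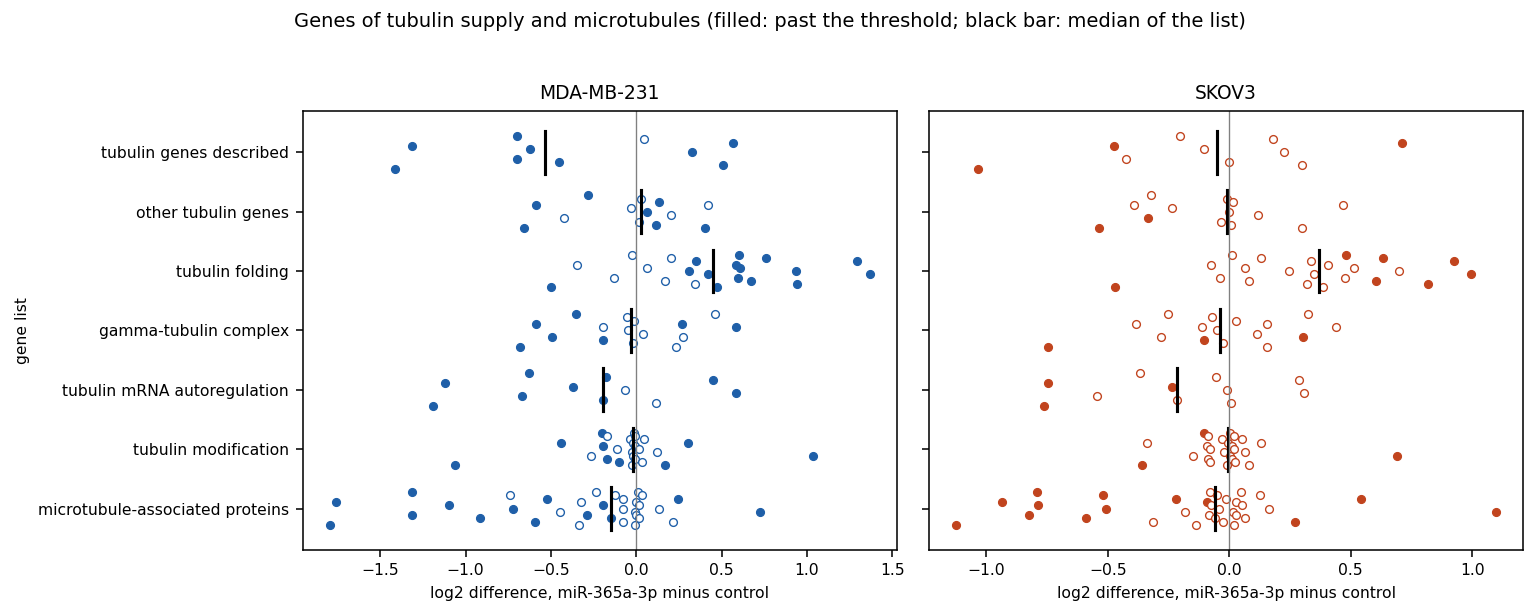
The log2 difference between miR-365a-3p and control miRNA (x axis) is plotted for every gene of each list (y axis) in each cell line; filled points passed an adjusted p under 0.05 and the black bar is the median of the list. The folding genes have a median of 0.45 in MDA-MB-231 and 0.37 in SKOV3, and the medians of the other related lists lie between -0.21 and 0.03.

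The rows whose pattern over the 11 arrays was most like TUBB were found by Pearson correlation among 6783 rows outside the lists with a mean above 8. They were MGC40489 (r = 0.996), ACTB, the beta actin gene (0.992), CCNI (0.989), NUP93, a nuclear pore gene (0.988), and SLTM (0.986). The correlation includes the gap between treatments, which the rule for TUBB used, so these are descriptions and carry no test. With miR-365a-3p, ACTB was lower by more than TUBB: it read 9.43, 10.24 and 10.55 against 13.02, 13.52 and 13.53 in MDA-MB-231 and 10.22, 10.89 and 11.29 against 13.33 and 13.46 in SKOV3. Replicate 1 was the lowest array of both treatments for ACTB in both lines, as it was for TUBB.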

How the data were processed

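Total RNA of 11 transfected cell line samples was measured on Illumina HumanHT-12 v4 BeadChips. Per the methods, quantile normalization was done in lumi, and the deposited values are log2 signals with 1 row per gene symbol, as made by the authors. The deposited columns do not share a distribution, and the rule that joined probes is not given in the sources used here. No value column was left unused, and no pair of arrays was a repeat (0 pairs with r above 0.9999). The number of arrays limits the precision.

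Quantile normalization was repeated on the 11 columns (limma 3.58.1, run under R 4.3.3). Means of the 4 groups were fitted to all 31325 rows (lmFit, eBayes, 7 residual degrees of freedom), and p-values were Benjamini-Hochberg adjusted over all rows, with a threshold of 0.05. Contrasts were miR-365a-3p minus control miRNA in each line, the difference of these changes, and SKOV3 minus MDA-MB-231 control. Where an array was left out so that SKOV3 control had 1, its spread was assumed to be that of the other groups. The code was tested on simulated data: of 200 rows changed by 1 among 31325, 93% were recovered in MDA-MB-231 and 90% in SKOV3. The change was estimated at 0.87 and 0.85 on average, with 11 and 15 false calls. The simulation changed few rows, equally up and down, whereas 26.1% and 14.4% of the real rows passed. It therefore checks the code and not the normalization of these data.

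The members and gene lists were chosen with earlier results of these data known. Named were all 10 tubulin genes, other tubulin rows with a mean above the 60th percentile of row means (7.45), up to 4 genes per list with the largest mean difference among those passing in both lines with the same sign and no overlap of arrays, the 5 rows outside the lists most correlated with TUBB, and the cell type markers. In the normalization, the replicate block, low rows, the variance model and the arrays included, 18 alternatives were tried. Figures were drawn with matplotlib 3.10.9.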

Additional observations from a re-analysis of the deposited data

Results flagged for a closer look

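The change of TUBB6 with miR-365a-3p was 0.92 higher (log2) in SKOV3 than in MDA-MB-231, and it was marked because the test of the difference between the cell lines passed. The change of TUBB2B was marked for the same reason, at -0.51 in SKOV3 relative to MDA-MB-231.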

How the results depend on the processing

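The calls of the 10 genes between treatments are a description, as TUBB's lower level chose the family. In MDA-MB-231, 6 of the 10 tubulin genes (TUBB, TUBB6, TUBB2B, TUBA1A, TUBA1C and TUBG1) kept their direction and their call under all 18 alternatives, with TUBB between -1.52 and -1.25, while TUBB3 lost its call in 13 of them, TUBA1B in 4 and TUBA4A had none. TUBB2A in MDA-MB-231 lost its call on the deposited and median-centred values and without replicate 2 of either group. In SKOV3, TUBB2A and TUBG1 lost their calls without either SKOV3 control array, with each line fitted alone and with the block below, TUBB lost its call without SKOV3 control replicate 2, and the count of 3 genes became 4 on the deposited values (TUBB2B passing at -0.15) and 1 with each line fitted alone, and ranged from 0 to 4 when single arrays were left out. The test between lines, with 2 of 9 genes, gave 1 on the deposited values, 1 after median centring, and 1 to 2 when single arrays were left out. The count between control groups ranged from 2 to 3, the third being TUBA1B without MDA-MB-231 miR-365a-3p replicate 1. Of the 120 related genes, 61 passed in MDA-MB-231 (45 to 65 leaving out single arrays) and 31 in SKOV3 (17 to 39, the lowest without either SKOV3 control array), where 47 passed on the deposited values and 18 with SKOV3 fitted alone. Beside these counts of related genes stand 26.1% of all rows in MDA-MB-231 and 14.4% in SKOV3, and 65.2% and 38.7% of rows with a mean above 8. Scaling changed the split of calls over all rows: 4511 rose and 3663 fell in MDA-MB-231 after quantile normalization against 2275 and 5620 as deposited, and 2270 and 2228 in SKOV3 against 1201 and 4401. Reversed in sign were differences that had not passed: TUBB3 between the changes of the lines was 0.10 as deposited, 0.10 median centred and 0.015 with cyclic loess, and leaving out single arrays TUBB2A ranged from -0.019 (without SKOV3 miR-365a-3p replicate 2) to 0.26 and TUBA4A from -0.023 (without MDA-MB-231 miR-365a-3p replicate 1) to 0.23. Between control groups, TUBA1B was -0.29 as deposited, -0.30 median centred and -0.13 with cyclic loess, TUBB2B was -0.00049 with cyclic loess, and leaving out single arrays TUBB2B ranged from -0.0029 (without SKOV3 control replicate 1) to 0.026 and TUBA4A from -0.060 (without SKOV3 control replicate 1) to 0.12, with -0.055 without MDA-MB-231 control replicate 1. The cause was not tested.

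Replicate numbers are shared between treatments, and whether they pair the arrays could not be decided from 2 or 3 arrays a group. The deviations of same-numbered arrays correlated at -0.12, 0.04 and 0.23 in MDA-MB-231 and 0.04 and -0.07 in SKOV3 over 6853 genes. With the replicate number as a block, 8 of 10 tubulin genes passed in MDA-MB-231, 1 in SKOV3 and 1 of 9 between lines, and 48 and 28 related genes passed. The block was not fitted to the comparison of control groups.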
